A study of Mus musculus with 5 samples.

Results

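A CpG is its own reverse complement, so each CpG has a cytosine on both DNA strands, and the pair of cytosines is called a dyad. The dyads described here are the autosomal CpGs whose forward-strand (F) cytosine at base b and reverse-strand (R) cytosine at base b+1 were each covered by at least 10 reads in all 5 libraries, leaving out chromosome 6 beyond 100 Mb. There were 262987 such dyads, which is 25.9% of the 1013472 CpGs of the same chromosomes covered in all 5 libraries on at least 1 strand. They lay on every autosome, from 7853 on chromosome 16 to 21941 on chromosome 11. Both strands were kept apart throughout.

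The assay was ERRBS (enhanced reduced representation bisulfite sequencing), which reads CpG-rich fragments cut out of the genome by the enzyme MspI. The cells were LSK cells (Lin- Sca1+ cKit+), the bone marrow fraction that holds blood stem cells and multipotent progenitors, sorted from C57BL/6 mice. There were 2 libraries titled as knockout but labelled with the heterozygous genotype (+/-), called targeted here, and 3 libraries from wild-type mice. No promoter, Cre or treatment is given for either group, and no age or sex is given for these libraries. Whether the libraries within a group stem from separate animals is not stated, and p-values therefore reflect the spread among these 5 libraries alone, which may be technical. Methylation tables hold no expression, so the sorted cell type could not be checked against marker genes here.

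Maintenance of methylation acts on the dyad. When DNA is copied, the new strand is made without methyl groups, and the dyad is hemimethylated until the maintenance methyltransferase DNMT1, guided by UHRF1, copies the mark from the old strand. A fully methylated and an unmethylated dyad therefore look the same on both strands, and a dyad with a lasting difference between strands is an exception. Bisulfite converts cytosines that carry no methyl group so that they are read as T, and each strand is read on its own, so the assay reports a level for each strand. MspI cuts CCGG and leaves a short single-stranded overhang, which holds the CpG cytosine. End repair, a step of the labels' protocol, fills such ends with bases supplied in the reaction.

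Total coverage per library ranged from 122015958 (targeted library 1) to 151634492 (targeted library 2). Within dyads the median coverage of a strand was 79 reads on F and on R in targeted library 1, and 125 on both in targeted library 2. In wild-type libraries 1, 2 and 3 it was 112, 120 and 73 reads on F and 113, 120 and 74 on R. Positions with fewer than 10 reads are not in the tables, so a strand below that depth removes its CpG from the dyads. Targeted library 1 stood apart from the other 4 in level, and group differences are given with and without it where it moves them most.

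Dyads were less methylated than the rest of the measured CpGs. Their mean level was 20, 19.5, 19.4, 19.3 and 19.4% in targeted libraries 1 and 2 and wild-type libraries 1 to 3. The 750485 strand entries of autosomal CpGs outside the dyads averaged 40.3, 39.6, 39.4, 39.3 and 39.3% in the same order. Both strands of a dyad were at or under 20% in 75.72 to 76.54% of dyads per library, and both were at or over 80% in 15.68 to 16.42%.

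F and R had nearly the same mean level, with R higher by a small fraction of a point in all 5 libraries. The mean level was 20.04% on F and 20.04% on R in targeted library 1, and 19.49% and 19.51% in targeted library 2. In wild-type libraries 1, 2 and 3 it was 19.41, 19.32 and 19.37% on F and 19.42, 19.34 and 19.38% on R. The mean of F minus R was between -0.02348 and -0.002359 percentage points per library. Across dyads, F and R levels correlated with r between 0.9094 and 0.9135 per library, over 262987 dyads that share libraries and, as neighbours, reads. Levels on both strands lay within 10 points of each other in 93.5 to 94.8% of dyads.

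A small set of dyads stood far from that agreement. The strands differed by at least 25 points in 8737, 8384, 8439, 8335 and 8381 dyads in targeted libraries 1 and 2 and wild-type libraries 1 to 3. Dyads with 1 strand at or over 80% and the other at or under 20% are called opposite-state here. F was the high strand in 3101, 3017, 3031, 3006 and 2850 dyads, and R was the high strand in 3099, 3032, 3037, 3031 and 2867. These opposite-state dyads made up 2.174 to 2.358% of all dyads per library. They recurred: 5390 dyads were opposite-state in the same direction in all 5 libraries, 2689 with F high and 2701 with R high, out of 6536 that were so in at least 1 library.

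The difference between strands was tested at each dyad with edgeR's quasi-likelihood test on methylated and unmethylated reads, with libraries as replicates. The test could be run on 194477 dyads, and the remaining 68510 had no methylated or no unmethylated read. A dyad was called where the p adjusted by Benjamini-Hochberg was below 0.05 and the strands differed by a mean of 25 points or more, and 4091 dyads (2.1% of those tested) were higher on F and 4120 (2.12%) were higher on R. Together these are 8211 dyads (4.22%), and 8207 of them had the same sign in every library. The strands differed by at least 25 points in every library in 3879 of those higher on F and 3906 of those higher on R. Called dyads were spread over the autosomes, from 2.68% of the dyads of chromosome 11 to 3.71% of those of chromosome 14.

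At the largest differences the strands were at the opposite ends of the scale in every library. At chr8:111341890 the F strand was read as methylated in 100% of 27, 14, 13, 22 and 10 reads in targeted libraries 1 and 2 and wild-type libraries 1 to 3. Its R strand was methylated in 1.23, 0, 0, 0 and 0% of 81, 105, 91, 82 and 47 reads. No library overlapped between strands, and the mean difference was 99.8 points (edgeR adjusted p = 5.1e-43). At chr12:22799703 the F strand was at 100, 98.6, 100, 100 and 100% of 57, 71, 65, 60 and 40 reads, and the R strand was at 0% of 56, 69, 70, 64 and 40 reads. A count of 0 in 40 reads allows a level of up to 7.5%, and the difference was 99.7 ± 0.63 points (SD over 5 libraries, edgeR adjusted p = 4.2e-65). The other 3 of the 5 dyads furthest in this direction were chr1:144399280, chr5:24557934 and chr1:99651661, with differences of 99.7, 99.5 and 99.5 points.

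In the other direction, the F strand of chr5:123566892 was at 0% of 58, 89, 77, 91 and 42 reads, which allows levels of up to 3.3 to 7.14%. Its R strand was at 98.8, 100, 100, 99.2 and 100% of 84, 98, 109, 129 and 49 reads. R exceeded F in every library, by a mean of 99.6 points (SD 0.558, n = 5, edgeR adjusted p = 5.4e-75). The next 4 were chr5:124593646, chr7:57053141, chr14:122819654 and chr12:114050235, where R was higher by a mean of 99.3 points at the first and 99.2 points at the other three. All 10 of these dyads had another dyad 46 to 50 bp away, to the right of those higher on F and to the left of those higher on R. Each had a neighbour at that distance called in the opposite direction. In 9 of the 10, the neighbour's facing strand was at or under 8.33% in every library, and at the partner of chr5:123566892 it was at 52.4 to 72.2%. At chr12:22799703 the mirrored neighbour lay 50 bp away, and another, 46 bp away, was high on both strands, at 88.7 to 96.5% on F and 87.7 to 100% on R.

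That position held for nearly the whole called set. Of the 4091 dyads higher on F, 3963 (96.9%) had another dyad 46 to 50 bp to the right. Of the 4120 higher on R, 3956 (96%) had one 46 to 50 bp to the left. Only 1 (0.0244%) and 3 (0.0728%) had one solely on the opposite side, and 127 (3.1%) and 161 (3.91%) had none on either side. Dyads with a neighbour at that distance made up 82794 of the 262987 dyads (31.5%). Of these, 59305 were tested and 7923 (13.4%) were called, against 288 of 135172 tested (0.213%) among the 180193 dyads without one. The window of 46 to 50 bp was set after the distances between called dyads had been seen, so the split by it is a description and carries no test.

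The called dyads formed pairs whose outer strands were methylated and whose facing strands were not. A dyad called higher on F was followed by one called higher on R at 46, 47, 48, 49 and 50 bp in 193, 852, 1051, 906 and 819 cases, 3821 pairs in all. At all other distances up to 120 bp there were 19 such pairs. The pair at chr1:144399280 and chr1:144399329 shows the arrangement. On the left dyad F was at 100, 100, 100, 98.5 and 100% and R at 0% in all 5 libraries. On the right dyad, 49 bp away, F was at 0, 0, 6.06, 0 and 7.41% and R at 95, 89.5, 93.3, 90 and 94.6%. The dyad between them, at chr1:144399322, was high on both strands in every library, at 87.3 to 96.8% on F and 89.1 to 96.2% on R. Coverage was alike at both dyads on each strand. F had 62, 81, 33, 66 and 28 reads at the left dyad and 62, 82, 33, 65 and 27 at the right one. R had 81, 103, 103, 100 and 56 reads at the left dyad and 80, 105, 104, 100 and 56 at the right one.

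**Figure D1:**
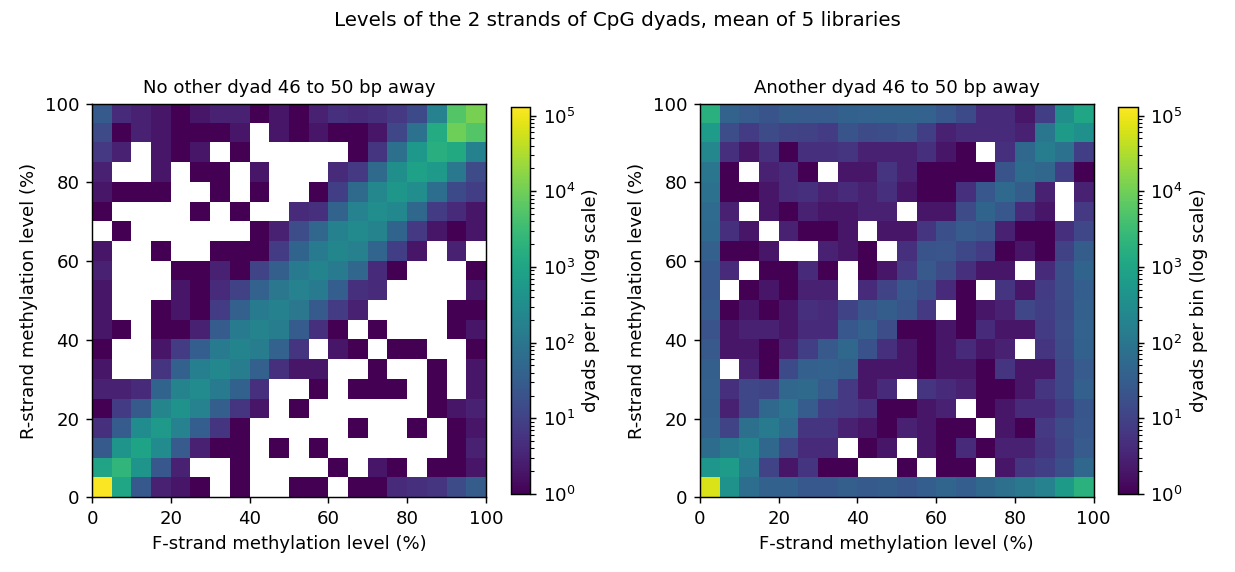
Each panel counts dyads by their F-strand level (horizontal axis, %) and R-strand level (vertical axis, %), both means of 5 libraries, in bins of 5 points, with the count as a colour on a log scale. The 180193 dyads without another dyad 46 to 50 bp away follow the diagonal, and the 82794 dyads with one also fill the corners where 1 strand is high and the other low.

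To describe the distance without using the calls, all pairs of dyads were taken in which the F strand of the left dyad and the R strand of the right dyad, called the near strands here, were at 80% or more over the 5 libraries. The other cytosines of the pair, R of the left dyad and F of the right one, are called the far strands. Each lies on the same strand as the near cytosine of the partner dyad. Reads were 50 bp long per the labels' protocol, and where they began was not tested. At 46 to 50 bp, both far strands were at or under 20% in 2354 of 4723 pairs (49.8%). At 20 to 45 bp this held in 0 of 13587 pairs and at 51 to 93 bp in 0 of 3987, where the median far strands were at 94.3 to 94.9%. At 94 to 100 bp it held in 12 of 499 pairs (2.4%), and from there to 120 bp in 1 of 1165.

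**Figure D2:**
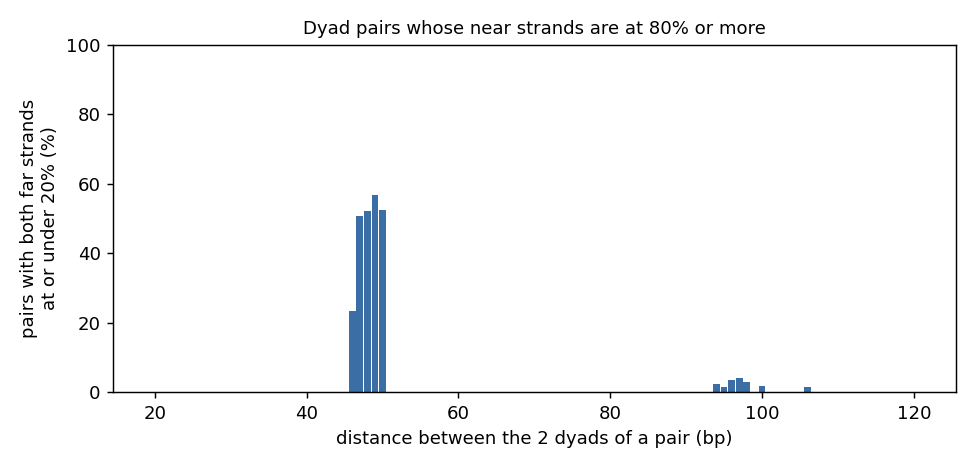
Bars give the percent of dyad pairs whose far strands were both at or under 20% (vertical axis) by the distance between the dyads in bp (horizontal axis), among pairs whose near strands were at 80% or more. The share is 0 from 20 to 45 bp and from 51 to 93 bp, stands between 23.4 and 56.6% at 46 to 50 bp, and is 2.4% over 94 to 100 bp.

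Not every pair at that distance showed it, and the pairs were set apart by their coverage. Where the coverage of both dyads was alike on F and on R (a log2 ratio of pooled coverage within 0.15), both far strands were low in 2209 of 2420 pairs (91.3%). Whether reads ran from 1 dyad to the other was not tested, and the labels' size selection was not set beside this distance. With coverage alike on both strands, the median far level was 0.896% on R of the left dyad and 0.945% on F of the right one. Where coverage was alike on F only, both far strands were low in 71 of 959 pairs (7.4%), with medians of 83 and 84.7%. On R only, the count was 70 of 960 (7.29%), and on neither strand 4 of 384 (1.04%).

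The far level also moved with coverage entry by entry. Of the 6740 far-strand entries whose coverage was 0.9 to 1.1 times that of the near entry on the same strand of the partner, 80% were at or under 20%, with a median level of 1.14%. At 1.1 to 1.5 times the median of 602 entries was 29.1%, and at 1.5 to 2 times that of 479 entries was 43.5%. At 2 to 3 times the median of 425 entries was 56.8%, and above 3 times that of 106 entries was 73.9%. At or below 0.5 times, the median of 472 entries was 96%. The far level was thus low mainly where coverage of the far and near entry was alike. It rose in steps above that range and was high below it. Which fragments the reads came from is not in the tables, and which step of library making or read processing has a part in the low far strands was not tested.

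**Figure D3:**
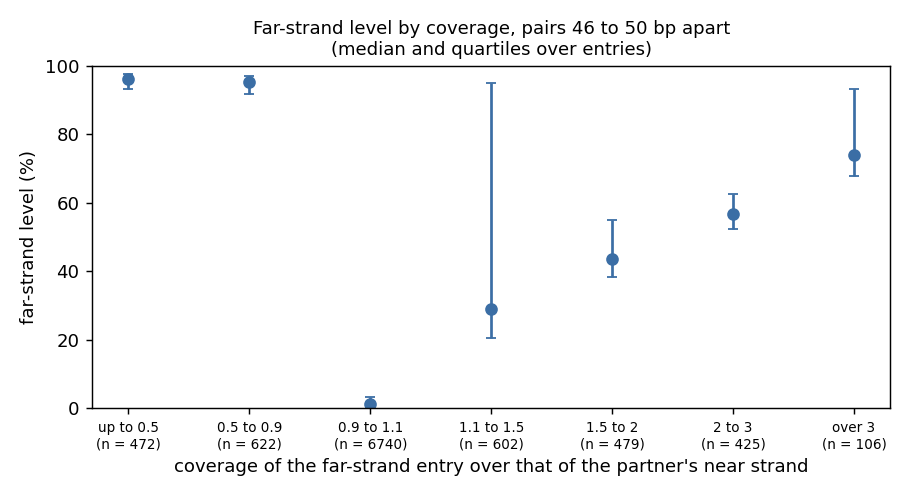
Points give the median far-strand level (vertical axis, %) with quartiles as bars, for pairs 46 to 50 bp apart, by the ratio of the far entry's coverage to that of the partner's near strand (horizontal axis, with the number of entries). The median is 1.14% at a ratio of 0.9 to 1.1, rises from 29.1 to 73.9% above 1.1, and is 95.2 to 96% below 0.9.

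In pairs with like coverage the far strand was low at every level of the near strand. Near strands at 20 to 40% (250 entries, median 29.5%) went with a median far level of 0.459%, near strands at 40 to 60% (200 entries, median 49.5%) with 0.709%, and near strands at 60 to 80% (417 entries, median 72.8%) with 0.833%. Near strands at 80% or more (5077 entries, median 96.2%) went with 0.919% and quartiles of 0.412 and 1.81%. The 1785 dyads that lay between both ends of the 2209 pairs with low far strands had a mean level of 92.8 to 93.5% on F and 92.7 to 93.4% on R per library. Their mean absolute difference between strands was 3.61 to 5.42 points, and at most 10 of them differed by 25 points or more in any library.

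All 5 libraries gave this pattern, with wild-type library 3 standing somewhat apart from the others. Both far strands were low in 91.2, 91.3, 91.2, 91.2 and 89.8% of the 2420 pairs in targeted libraries 1 and 2 and wild-type libraries 1 to 3. Pooled over the far strands of the 2209 low pairs, 1.17% of 410950 reads were methylated in targeted library 1 (95% Wilson interval 1.14 to 1.21%). The value was 1.01, 1.02 and 0.95% in targeted library 2 and wild-type libraries 1 and 2, and 1.86% of 224125 reads in wild-type library 3 (1.81 to 1.92%). These intervals cover counting error only. The mean was 1.09 ± 0.115% (SD, n = 2) in the targeted libraries and 1.28 ± 0.509% (n = 3) in the wild-type ones (exact permutation test, two-sided, p = 0.9). The near strands of the 2420 pairs had medians of 96.9, 96.4, 96.3, 96.1 and 96.2%.

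These pairs held much of what looks like intermediate methylation once strands are averaged. By the mean over strands and libraries, 8782 dyads lay at 40 to 60%, and 6446 of them (73.4%) had a dyad 46 to 50 bp away. Of those 6446, 6129 (95.1%) were called between strands, against 184 of the 2336 without such a neighbour (7.88%). An opposite-state dyad falls into this class by its definition. At 20 to 40% and 60 to 80%, 725 of 4170 (17.4%) and 925 of 4773 (19.4%) dyads were called. At the ends of the scale it was 179 of 201705 dyads under 20% (0.0887%) and 69 of 43557 dyads at 80% or more (0.158%).

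Away from these pairs the strands of a dyad differed about as much as a strand differs between libraries. Among the 180193 dyads with no other dyad 46 to 50 bp away, the mean absolute difference between F and R was 2.029, 1.745, 1.875, 1.733 and 2.059 points in targeted libraries 1 and 2 and wild-type libraries 1 to 3. The same strand differed between libraries by 1.66 to 2.17 points over the 10 pairs of libraries. F and R correlated with r of 0.9917 to 0.9935 across these dyads, and 0.07714 to 0.08324% were opposite-state, 111 of them in all 5 libraries. Part of the difference recurred: F minus R correlated between libraries with r of 0.362 to 0.474 across these dyads, against 0.985 to 0.993 across those with a dyad 46 to 50 bp away. With a dyad 46 to 50 bp away, the strands differed by 8.445 to 9.065 points on average, while the same strand differed between libraries by 0.932 to 1.34 points. There 6.737 to 7.307% were opposite-state, and r was 0.4811 to 0.5124.

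**Figure D4:**
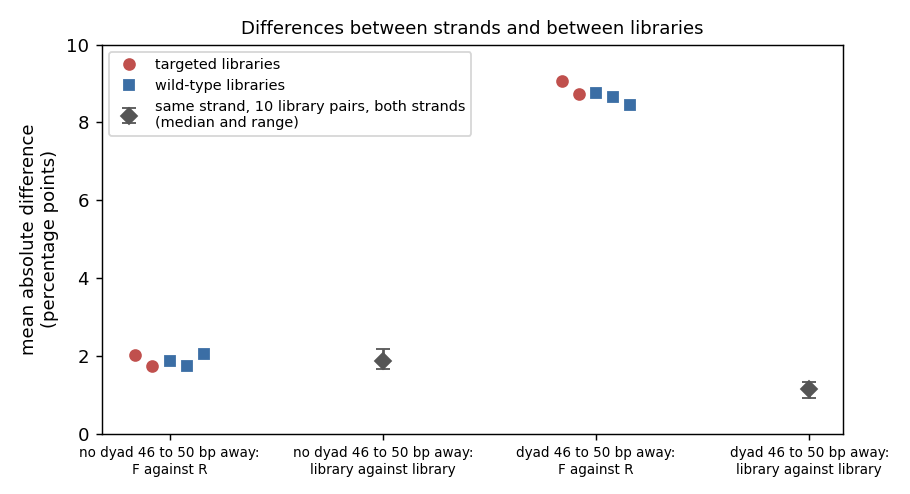
Points give the mean absolute difference in percentage points (vertical axis) between F and R in each of 2 targeted libraries (circles) and 3 wild-type libraries (squares), and diamonds the median and range of the difference between libraries on the same strand over 10 library pairs. Without a dyad 46 to 50 bp away both lie near 2 points, and with one the strands differ by 8.445 to 9.065 points against 0.932 to 1.34 between libraries.

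The 8678 dyads with intermediate levels (20 to 80%) and no such neighbour showed how far the strands agree where there is room to differ. Their F and R levels correlated with r of 0.6628 to 0.7164, and their mean absolute difference was 9.045 to 10.46 points. The same strand differed between libraries by 7.75 to 11.6 points in these dyads. F minus R correlated between libraries with r of 0.606 to 0.707 across them. Only 1.602 to 1.729% of them were opposite-state, against 61.66 to 66.87% of the 9047 intermediate dyads with a neighbour 46 to 50 bp away.

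Dyads on the X chromosome, kept apart from the autosomes, gave another set of intermediate levels. Of 5371 X-linked dyads, 2162 had no dyad 46 to 50 bp away and a mean level of 20 to 80%. Their F level averaged 43.8% in targeted library 1, against 31.93, 31.78, 31.3 and 31.73% in the other libraries. Only 0.1388 to 0.2775% of them were opposite-state, so few of these intermediate levels came from strands at opposite ends of the scale. F and R correlated with r of 0.5429 to 0.6732 across these dyads. Their mean absolute difference was 7.027 to 9.976 points, and 1.388 to 6.198% of them differed by 25 points or more. The sex of the animals is not given, and its part in the level of targeted library 1 was not tested. The 4291 dyads of chromosome 6 beyond 100 Mb, which in targeted mice may carry sequence from a second strain, had 2.587 and 2.61% opposite-state dyads in targeted libraries 1 and 2, against 2.377, 2.377 and 2.144% in wild-type libraries 1 to 3. Both targeted libraries were above all wild-type ones (exact permutation p = 0.1, the smallest possible), and the part of strain sequence in this was not tested. Other measures were mixed. Dyads with strands at least 25 points apart numbered 153 and 154 against 153, 151 and 151 (exact permutation test, p = 0.3). The mean absolute difference overlapped (exact permutation test, p = 0.9). The root mean square difference with counting variance subtracted and the mean of F minus R did not overlap (exact permutation p = 0.1 each).

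Strand differences without a partner dyad were few. Of the 288 called dyads with no dyad 46 to 50 bp away, 183 (63.5%) had a CpG measured on 1 strand at that distance. That CpG lay on the same side as the partner dyads of the paired calls, and 105 (36.5%) had none. How often dyads that were not called had such a CpG was not counted, so these shares have no background beside them. The median ratio of the deeper to the shallower strand was 1.99 in the 288. It was 1.21 in the dyads without such a neighbour that were not called, and 1.28 in the called dyads with one. An entry among the highest 0.1% of coverage of its library was found in 25 of the 288 (8.68%). Of the dyads without such a neighbour that were not called, 319 (0.177%) had one. The lower strand was the deeper one in 177 (61.5%). The part of coverage in these differences was not tested.

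Examples of these, chosen after their values were seen, were as far apart as the paired ones. At chr13:104739388 the F strand was at 100, 96.6, 94.4, 95.3 and 100% of 32, 29, 36, 43 and 15 reads, and the R strand at 0% of 135, 124, 177, 116 and 135 reads. The difference was 97.3 ± 2.6 points (SD, n = 5, edgeR adjusted p = 5.0e-60). At chr2:55639982 F was at 1.89, 0, 0, 2.27 and 0% and R at 97.4, 100, 95.5, 92.3 and 100%, so that R was higher in every library. Some lay in runs of dyads within 60 bp of each other, a closeness not counted over all dyads. Of the 288, 40 fell into 12 such runs. The longest, 9 dyads at chr4:146561900-146561935, averaged 20.1% on F and 71.8% on R, and 6 dyads at chr17:36368391-36368427 averaged 0.0834% and 38%. A run of 5 dyads at chr6:8678953-8678980 averaged 53.7% on F and 96.6% on R.

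The series asks whether the targeted gene affects methylation in these cells, and at dyads that can be asked on each strand by itself. Averaged over dyads, levels were slightly higher in the targeted libraries on both strands. On F the mean was 19.8 ± 0.387% (SD, n = 2) against 19.4 ± 0.0447% (n = 3), a difference of 0.4 points. On R it was 19.8 ± 0.372% against 19.4 ± 0.0437%, a difference of 0.399 points. For both strands p was 0.1 in a two-sided exact permutation test, the lowest that 10 splits of 5 libraries allow. Most of it came from targeted library 1: without it the differences were 0.1263 points on F and 0.1354 points on R, and without targeted library 2 they were 0.6741 and 0.6621 points. Pooled over reads, which weights deep entries most, F was at 25.3 and 15.5% in targeted libraries 1 and 2, against 15.6, 15.5 and 16.8% in wild type. R was at 26.9 and 16.8% against 16.9, 16.9 and 19.5%. These pooled differences were 4.4 and 4.05 points on F and R (exact permutation p = 0.4 and 0.7), and -0.515 and -1.02 points without targeted library 1. Depth was very uneven: R of chr2:98506660 alone had 3142251 reads over the 5 libraries. Pooled levels need not reflect most dyads, and they were not computed without the highest 0.1% of coverage.

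The difference between the groups was of like size on F and on R within each class of level, where classes were set by the mean over both groups. Among dyads with no dyad 46 to 50 bp away and a mean level of 20 to 40%, F averaged 35.47 and 28.37% in targeted libraries 1 and 2 and 26.96 ± 0.315% (SD, n = 3) in wild type. R averaged 35.64, 28.72 and 27.02 ± 0.163%. At 40 to 60%, F averaged 56.9, 48.72 and 47.83 ± 0.592%, and R 57.06, 48.99 and 48.22 ± 0.457%. The group differences were 4.96 and 5.16 points on F and R at 20 to 40%, 4.98 and 4.8 points at 40 to 60%, and 3.3 and 3.57 points at 60 to 80%. Under 20% they were 0.157 and 0.157 points and at 80% or more 0.632 and 0.6 points. Without targeted library 1 they fell to 1.41 and 1.7 points at 20 to 40%, 0.889 and 0.762 points at 40 to 60%, and 0.689 and 0.897 points at 60 to 80%. Under 20% they were then 0.0516 and 0.0616 points, and at 80% or more 0.363 and 0.35 points. In each class and on each strand the 3 wild-type libraries lay below both targeted ones (exact permutation p = 0.1 each, the smallest possible), and targeted library 1 was the higher of the 2.

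**Figure D5:**
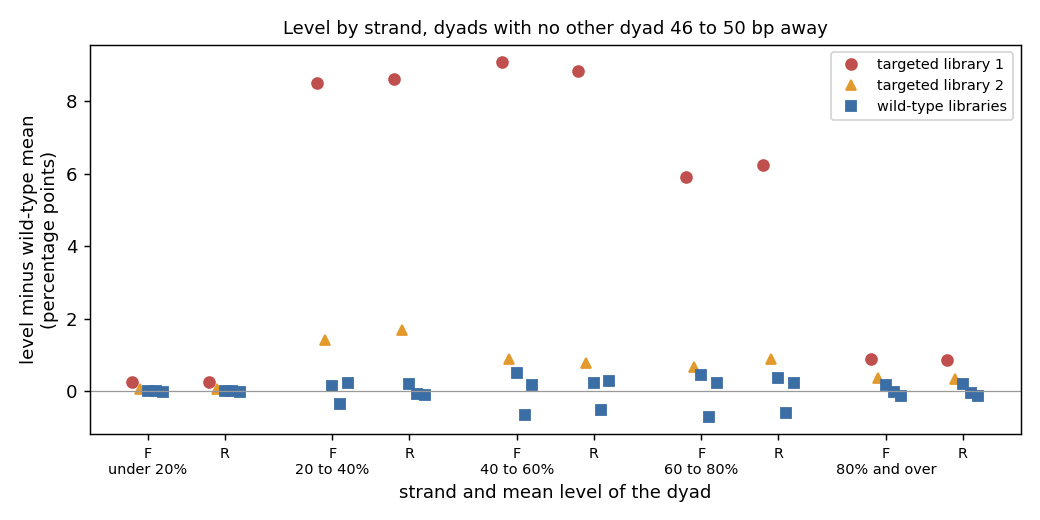
Points give the mean level of each library minus the wild-type mean, in percentage points (vertical axis), on F and R in 5 classes of mean level (horizontal axis), for dyads with no other dyad 46 to 50 bp away. Targeted library 1 stands furthest above the 3 wild-type libraries at 20 to 80%, targeted library 2 lies closer to them, and F and R give nearly the same picture.

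Over all dyads, the groups overlapped in the amount of strand disagreement. The mean absolute difference between strands was 4.1 ± 0.209 points (SD, n = 2) in the targeted and 4.01 ± 0.0843 points (n = 3) in the wild-type libraries (exact permutation test, p = 0.5). Without targeted library 1 the sign turned, to -0.05882 points. Opposite-state dyads made up 2.33 ± 0.0406% and 2.26 ± 0.0739% (exact permutation test, p = 0.5). Among dyads with another 46 to 50 bp away, those with strands at least 25 points apart numbered 8070 and 7949 in the targeted libraries (9.747 and 9.601%). In wild type they numbered 7911, 7897 and 7749 (9.555, 9.538 and 9.359%), without overlap (exact permutation p = 0.1, the smallest possible). In the same dyads the mean absolute difference did overlap, at 9.065 and 8.744 against 8.752, 8.652 and 8.445 points (exact permutation test, p = 0.3). The share of opposite-state dyads overlapped too (exact permutation test, p = 0.5). Over all dyads the mean of F minus R was -0.0129 ± 0.0149 and -0.0144 ± 0.00524 points (exact permutation test, p = 0.9). The difference of 0.00145 points turned to -0.009111 without targeted library 1 and to -0.000378 without wild-type library 2.

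Few single strands of dyads were called between the groups. The test was fitted on all autosomal strand entries, of which 887428 could be tested and 71 (0.008%) met the same thresholds, 18 higher (0.00203%) and 53 lower (0.00597%) in the targeted libraries. Outside distal chromosome 6 the count was 17 of 872603 (0.00195%). On dyads, 6 of 160788 F entries (0.00373%) and 3 of 161248 R entries (0.00186%) were called. At an unadjusted p under 0.05 there were 4169 F entries (2.59%), 3294 higher and 875 lower, and 4156 R entries (2.58%), 3300 higher and 856 lower. Over all autosomal entries there were 23758 (2.68%), 18368 higher and 5390 lower. The share and its lean to higher levels were thus not particular to dyads. Evenly spread p-values would give a larger share.

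The calls with the smallest p came from 1 stretch of chromosome 3 and were higher in the targeted libraries. CpGs this close can share reads, so these calls are not independent of each other. At chr3:105762569 the F strand was at 34.7 and 28.8% of 173 and 250 reads in targeted libraries 1 and 2, and at 0% of 167, 180 and 124 reads in wild-type libraries 1 to 3 (edgeR adjusted p = 7.8e-09). Its R strand, also called, was at 25.2 and 27% against 0% in all 3 (edgeR adjusted p = 2.2e-07). The next CpG, at chr3:105762573, gave 32.5 and 30.2% on F against 0% in all 3 (edgeR adjusted p = 1.0e-08). Its R strand was at 23.8 and 28.2% against 0, 0.613 and 0% (edgeR adjusted p = 2.0e-06), a call named after its values were seen. At chr3:105762586, F was at 28.1 and 30.5% and R at 22.7 and 25.9%, with 0% on both strands in all 3 wild-type libraries. F was called (29.3 points, edgeR adjusted p = 2.8e-08), while the R difference of 24.3 points (adjusted p = 6.0e-07) fell short of 25 points.

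One dyad of this stretch was higher on F alone. At chr3:105762536, F was at 34.5 and 29.1% of 174 and 255 reads against 0% of 165, 179 and 124 reads (edgeR adjusted p = 7.8e-09), while R was at 0% in all 5 libraries on 49, 66, 69, 52 and 81 reads. This dyad lies 50 bp left of chr3:105762586. Of the far strands of this pair, R of the left dyad was thus at 0%, and F of the right dyad was at 28.1 and 30.5% in the targeted libraries. R of the right dyad, a near strand, was at 22.7 and 25.9% there, and R of the left dyad had fewer reads than it. The part of the pair arrangement in the difference on F alone was not tested. The wild-type zeros allow levels of up to 1.82, 1.68 and 2.42% on F. Between these positions, CpGs measured on F at chr3:105762539, chr3:105762544 and chr3:105762546 were 31, 30.8 and 29.8 points higher in the targeted libraries.

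The remaining 3 called entries, named after their values were seen, were lower in the targeted libraries on 1 strand only. At chr1:102890930 the F strand was at 55.4 and 41.8% of 175 and 196 reads in the targeted libraries, against 92.6, 96.2 and 96% of 68, 79 and 50 reads in wild type (edgeR adjusted p = 4.3e-04). Its R strand was at 96.7 and 93.9% against 97.7, 91.7 and 90.3%. The F strand of the CpG 15 bp to the left, at chr1:102890915, was at 97.7 and 96.4% against 98.6, 91.1 and 90.6%, so the drop was not shared by the neighbour. F coverage was higher in both targeted libraries than in any wild-type library.

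The R cytosine at chr6:59983385 was at 45.3 and 37.6% of 75 and 109 reads against 92.3, 95.5 and 92.6% of 39, 44 and 27 reads (edgeR adjusted p = 0.0011), and the F strand of its dyad was at 98 to 100% in all 5. At chr16:44894169 F was at 52.8 and 52.9% of 339 and 261 reads against 92.8, 88.3 and 94.8% of 167, 145 and 96 reads (edgeR adjusted p = 0.012). R was at 63.8 and 72% against 56.5, 58.9 and 70.2%, where the groups overlap. At both positions as well, the targeted libraries had more reads than any wild-type library on the strand that was lower, and the nearest CpGs on that strand differed by -1.81 to 3.3 points. The part of coverage in these 3 differences was not tested. Each call was lost without single libraries: at chr1:102890930 without wild-type library 2 or 3 (edgeR adjusted p = 0.37 and 0.079), and at chr6:59983385 without wild-type library 1, 2 or 3 (0.08, 0.55 and 0.056). At chr16:44894169 it was lost without targeted library 1 or any wild-type library (edgeR adjusted p from 0.054 to 0.91) with limma (0.34) and with the replicate number as a block (0.053).

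Whether a group difference depends on the strand was tested as a group by strand term over all dyads. None of 194477 dyads was called with edgeR (0%), and limma on log2 ratios called none either. With edgeR 1831 (0.941%) had an unadjusted p under 0.05, 892 with one sign and 939 with the other. Evenly spread p-values would give a larger share at that threshold, so the lack of calls does not show that group differences were alike on both strands. How many dyads lack a finite estimate of this term was not counted. The 3 dyads lower on 1 strand had interaction differences of -48.4, 52.4 and -45.2 points at chr1:102890930, chr6:59983385 and chr16:44894169, with unadjusted p of 5.0e-04, 0.061 and 5.0e-06 and adjusted p of 1, 1 and 0.32 (edgeR). Where wild type was at 0 on both strands, as at chr3:105762536, chr3:105762569 and chr3:105762586, the term has no finite estimate. At chr3:105762573 wild type was at 0 on F in every library, so the estimate is not finite there either. Its unadjusted p of 0.39 (edgeR) therefore does not show that the strands were alike. At an adjusted p under 0.05 but under 25 points stood chr17:39981987 and chr17:39981990 (edgeR adjusted p = 2.6e-04 and 2.4e-04), named after their values were seen. Their R strands had 9998 to 20279 reads, and F at chr17:39981987 ranged from 13 to 90.1% among the wild-type libraries alone, against 56.9 and 93.7% in the targeted ones.

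Across dyads the group difference on F and on R had means of 0.4 and 0.399 points and correlated with r = 0.283, over 262987 dyads whose strands share libraries. Of the 3926 dyads with a difference of at least 10 points on F, 2945 had the same sign on R, and 1000 had at least 10 points on both strands in the same direction. Without targeted library 1 the means were 0.126 and 0.135 points and r was 0.149; 4105 dyads had at least 10 points on F, 2562 of them with the same sign on R, and 641 had at least 10 points on both in the same direction.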

How the data were processed

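The 5 ERRBS libraries were aligned to mm9 (NCBIM37) and Bismark was used, per the submitters' processing notes, which give no version. Per the labels' protocols, DNA was cut with MspI, end-repaired, adenylated, ligated to methylated adaptors, size-selected, bisulfite-converted, amplified and read as 50 bp single ends. The deposited tables hold, per the file headers, the coverage count of each CpG cytosine by strand and the percent of it read as C and as T. The authors' counts are whole and not normalized, and the lowest is 10. Coordinates are those of the files (the largest on chromosome 1 is 197193419), 1-based, and a dyad is named by its F base. No gene annotation or sequence was set beside them, and the targeted gene is not reported here.

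Methylated and unmethylated reads were recovered from coverage and percent by rounding (within 0.01 of a whole number for 99.97% of entries). edgeR 4.0.16 quasi-likelihood tests used a common dispersion and a factor for each library, or for each library and strand, and were checked on simulated data. Calls needed a Benjamini-Hochberg adjusted p under 0.05 and 25 percentage points. Dyads or entries lacking methylated reads, or lacking unmethylated ones, in all libraries were left untested. Per-library means were compared by exact permutation over 10 splits. Where a level was 0, 3 reads over the coverage gave the level it still allows; these limits and the 95% Wilson intervals reflect counting error alone, as the labels' protocols name no molecular identifiers. R 4.3.3, data.table (version 1.17.8), limma 3.58.1 and matplotlib 3.10.9 were used.

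The dyads, tests and thresholds were chosen with earlier results of these data known, and the window of 46 to 50 bp, the near and far strands and the coverage match after the data were seen. The dyads named were the 5 largest called strand differences in each direction with the same sign in every library, up to 5 called for group by strand, and the 5 strand entries with the smallest p between groups; others are said to be chosen after their values were seen, and the dyads shown beside a named one are those of its pair or its neighbours. Alternatives were a coverage minimum of 20, no entries in the highest 0.1% of coverage, all autosomes, each library left out, limma on log2 ratios with 1 read added, minimum differences of 10 and 50 points, the replicate number as a block, intermediate levels only, pooled reads, counting variance subtracted, stricter opposite states (10 and 90%), and dyads without a neighbour at 46 to 50 bp, the last added after the data were seen.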

Additional observations from a re-analysis of the deposited data

How the results depend on the processing

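Calls between strands kept their counts within 1.5 times under every alternative run on all dyads: leaving out each library gave 4071 to 4104 dyads higher on F and 4100 to 4134 higher on R. Refitted on dyads with no other dyad 46 to 50 bp away, they were 126 and 155, since most called dyads are then left out. Calls between groups on F were 0 at a minimum of 50 points, 15 with distal chromosome 6 included, and 4 to 9 with each library left out (9 without targeted library 2). On R they were 5 at a minimum of 10 points, 1 at 50 points, 12 with distal chromosome 6 included, and 2 to 9 with each library left out (9 without targeted library 2). Group by strand calls were 2 at a minimum of 10 points, 1 with the replicate block, and 0 to 3 with each library left out (3 without targeted library 2 or wild-type library 3). The targeted minus wild-type difference in mean F minus R was -0.07162 points at intermediate levels and -0.009111 to 0.01201 points with each library left out. That in mean absolute strand difference was -0.002408 points without a dyad 46 to 50 bp away and -0.05882 to 0.2367 points with each library left out. The cause of the other changes was not tested.

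Deviations of same-numbered libraries from their group means correlated at -0.00179 and 0.0419, and those of other-numbered ones at -0.0419 to 0.0398. The deviations of the 2 targeted libraries mirror each other, which ties these values together, so they cannot exclude pairing. With the replicate block 6 F and 3 R entries were called between groups, without chr16:44894169 on F. The 10 named strand differences kept their calls in the 10 or 11 alternatives each entered (chr8:111341890, chr1:99651661 and chr14:122819654 drop out at a coverage minimum of 20); the chromosome 3 calls were lost at a minimum of 50 points, and at R of chr3:105762573 also without targeted library 2 (23.6 points). By the reads on their shallowest strand, 119 of 6375 dyads (1.87%) were called between strands at 10 to 12 reads, 343 of 19166 (1.79%) at 13 to 19, 5028 of 98557 (5.1%) at 20 to 49 and 2721 of 138889 (1.96%) at 50 or more. Positions under 10 reads were not analysed here.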
